A study of Sus scrofa with 6 samples.

Results

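PLD1 and CDS1, a pair of host genes of phosphatidic acid metabolism, were described by the circular RNAs (circRNAs) they gave in boar testis. Every circRNA of the expression table whose host gene was given as PLD1 or CDS1 was taken. They were 19 of the 4350 circRNAs in the table, 18 from PLD1 and 1 from CDS1. The testes came from 3 Young_D30 boars, which were Landrace piglets 30 days old, and from 3 Adult_D210 boars, which were Landrace boars 210 days old. Each boar gave 1 library of total testis RNA, cleared of ribosomal RNA and then digested with RNase R, an enzyme that removes linear RNA. The labels give the boars no treatment and no allele. The study compared the stages to ask how testicular circRNAs change between the piglet and the sexually mature boar.

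A circRNA forms when the end of an exon is spliced back to the start of the same exon or of one before it, which leaves a closed ring that RNase R does not digest. Phosphatidic acid is the simplest glycerophospholipid, both a signal in membranes and the precursor from which other phospholipids are made. PLD1, phospholipase D1, cuts phosphatidylcholine into phosphatidic acid and choline on the membranes of the Golgi, endosomes and cell surface, and it is switched on by small GTPases of the ARF family. CDS1, CDP-diacylglycerol synthase 1, acts on the lipid that PLD1 makes: it joins phosphatidic acid to CTP and gives CDP-diacylglycerol, from which phosphatidylinositol is built. Because linear RNA was removed, the mRNAs of the genes were not measured, and the values below are numbers of reads across back-splice junctions only.

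Depth differed between libraries, and the table analysed here covers a part of the circRNAs of these libraries. Its exonic circRNAs lie on 4 chromosomes, 7, 8, 12 and 13, and its intronic ones on 19. Exonic circRNAs of genes on other chromosomes were not analysed here, so totals of back-splice reads, shares of all features and missing genes below refer to this table and not to the testis as a whole. Back-splice reads in the table ranged from 12701 to 33091 per library, and mapped reads from 37364412 to 49179118. Young_D30_1 had the most back-splice reads and 886 of them per 1000000 mapped reads, against 260 to 480 in the other libraries. All 2552 exonic circRNAs of the table, to which the 19 belong, had at least 1 read in Young_D30_1, and 650 of them (25.5%) had reads there alone. No such condition held for the intronic circRNAs, of which 1342 had no read in Young_D30_1. An exonic circRNA without a read in Young_D30_1, such as one found in adults alone, is thus missing here. This can favour Young_D30 in the sums and ratios of exonic circRNAs, by an amount that cannot be told. The part this plays in the values of the genes was looked at only by leaving out the library, or the circRNAs seen in it alone. Neither brings back the missing circRNAs. The shares and medians over all circRNAs or host genes tested, given below, pool exonic with intronic ones. They are thus not those of features under the same condition as the 19. Of 71 marker genes of testicular cell types, 9 were host genes in the table, all by intronic circRNAs, so the cell composition could not be read from it. The Leydig cell genes CYP17A1 and STAR had 4 to 12 reads together in each Young_D30 library and 12 to 16 in each Adult_D210 library. The spermatocyte genes MOV10L1 and PIWIL1 had 9 to 28 and 1 to 24 reads. GATA4 of Sertoli cells had 7, 0 and 1 reads in Young_D30, and KIT of spermatogonia 0, 0 and 4. ACTA2 and CD163, of peritubular, endothelial and immune cells, had 2, 0 and 0 together. None of these 4 had an adult read, and ACRV1 of spermatids had 1 read, in Adult_D210_3. In whole testis, fewer cells of a type and less circRNA per cell cannot be told apart.

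Over the 19 circRNAs, all of which had a read in Young_D30_1, reads of both genes were many times fewer in the Adult_D210 libraries. PLD1 circRNAs had 95 reads in the 3 Young_D30 libraries together and 8 in the 3 Adult_D210 libraries. The CDS1 circRNA had 90 reads and 4 reads. For each gene every Young_D30 library stood above every Adult_D210 library, as it did for 22.5% of the 560 host genes with at least 10 reads. The genes were chosen by their host gene names, with their reads and their change between these same stages already known, so the stage change is given as a description and nothing is read from the share of calls.

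CDS1, the user of phosphatidic acid, gave a single abundant ring. Its circRNA, circRNA10493, encloses 4 exons on the minus strand of chromosome 8 from 143484196 to 143500629, a span of 16434 nt (assembly Sscrofa10.2 per the labels, as for all positions below). The introns at its lower and higher side were 20455 and 18463 nt long, longer than 88.5% and 86.1% of the introns that flank exonic circRNAs, whose median was 4813 nt. Of the 659 host genes of exonic circRNAs, 233 (35.4%) had 1 such circRNA, as CDS1 did. Those lone circRNAs had a median of 7 reads, whereas circRNA10493 had 94, and 10 of them had more. Its mean level over the 6 libraries lay above that of 90.5% of all exonic circRNAs.

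The Young_D30 libraries held 47, 16 and 27 reads of circRNA10493. The Adult_D210 libraries held 1, 0 and 3. Scaled by mapped reads and read length (SRPBM, the deposited measure of back-splice level), these were 8.39, 2.45 and 4.15 SRPBM in Young_D30 and 0.136, 0 and 0.410 SRPBM in Adult_D210. The means were 4.99 ± 3.06 SRPBM (SD, n = 3) and 0.182 ± 0.209 SRPBM (SD, n = 3). Young_D30_1 was the highest library and Young_D30_2 the lowest of its group, yet the latter was still well clear of the highest adult library. The lead of Young_D30_1 was gone on the second scale, CPM (reads after scaling each library to 1000000 back-splice reads), on which the Young_D30 libraries had 1420, 867 and 1450 CPM and the Adult_D210 libraries 42.4, 0 and 236 CPM. A count of 0 in Adult_D210_2 allows up to 3 reads, or 210 CPM.

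A ratio per mapped read carries the difference between libraries in back-splice reads per mapped read. In CPM, which takes that out, the Young_D30 and Adult_D210 means of circRNA10493 were 1246 and 92.9. Per mapped read, circRNA10493 was 25.04 times as frequent in Young_D30 as in Adult_D210 (95% exact interval 9.45 to 93.9, over pooled reads). This interval and the limits given for a count of 0 cover counting error only and leave out the spread between libraries. PCR copies of 1 molecule could not be told from separate molecules, so even that error may be understated. The log2 fold change of Adult_D210 against Young_D30 for the circRNA, in edgeR's quasi-likelihood test over the 1341 circRNAs with at least 10 reads, was −4.01 (SE 0.82), past the limits for a call (adjusted p under 0.05 and a change of at least 1). The median change of all circRNAs tested was −0.42. Without Adult_D210_1 the value was −3.55 and no longer a call, and without Adult_D210_3, which held 3 of the 4 adult reads, it was −5.38.

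**Figure D1:**
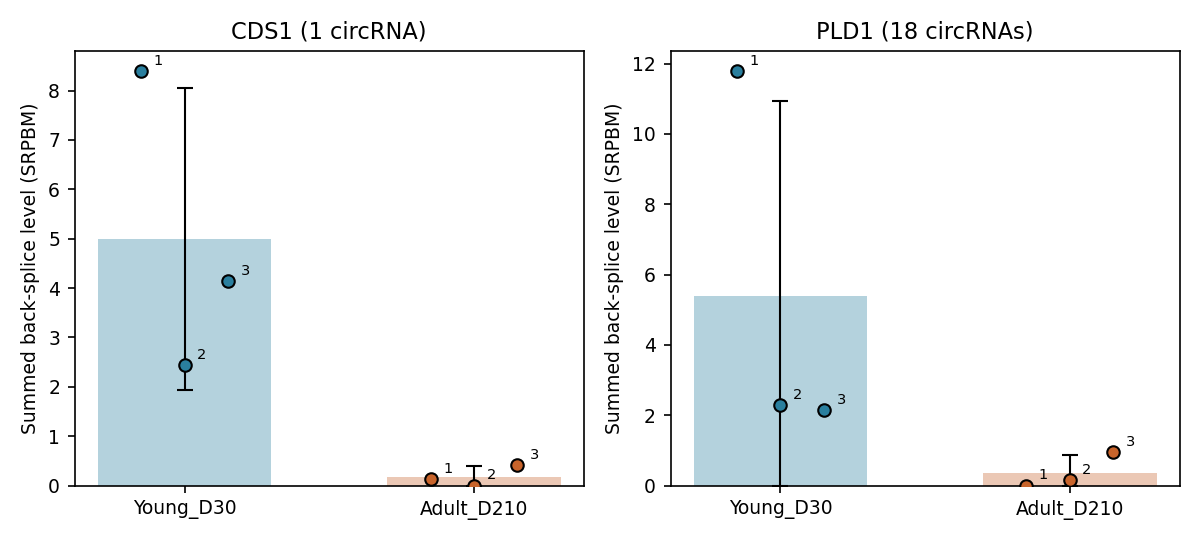
Summed back-splice level of CDS1 (left, 1 circRNA) and PLD1 (right, 18 circRNAs) in SRPBM, the read count scaled by mapped reads and read length. Points are single libraries numbered by replicate, bars the means of 3 libraries and whiskers ± SD, with the lower whisker stopped at 0. Each adult point lies below each Young_D30 point of its gene, and Young_D30_1 is the highest point for both genes, at 8.39 SRPBM for CDS1 and 11.8 SRPBM for PLD1.

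PLD1, the maker of phosphatidic acid, gave many rings, each with few reads. Its 18 circRNAs lie on the minus strand of chromosome 13 between 119145908 and 119279372, over 133465 nt, and were all assigned to transcript ENSSSCT00000012861. From their ends, flanking introns and exon numbers, 25 exons could be placed in order, with 0 of 54 constraints contradicted. The exons are numbered here from the lowest coordinate, which runs against transcription, so these are not the numbers of the transcript. The circRNAs enclosed 2 to 10 exons (median 5) and spanned 4356 to 41108 nt (median 18826), against a median of 4 exons and 8725 nt over all exonic circRNAs. None was made of a single exon. For the 12 whose exon lengths could all be worked out, the spliced ring measured 272 to 1284 nt, and 3 of the 12 were a multiple of 3 nt long.

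Most PLD1 rings shared a splice site with another, and how often rings of other host genes do so was not counted. There were 12 distinct starts and 13 distinct ends among the 18. A total of 15 circRNAs shared a start or an end with another, 4 shared both with different partners, and 3 shared neither. The lower edge of exon 6 was used by 4 circRNAs with 16 reads, and the upper edge of exon 14 by 2 circRNAs with 25 reads. The upper edge of exon 15 closed 3 circRNAs, which together had only 7 reads, all from Young_D30_1. The introns that flank the rings, 21 distinct ones, measured 247 to 82687 nt, and the longest lies beyond exon 25. Their median was 9275 nt with each intron counted once for every ring it flanks, so that shared introns weigh more.

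The rings also fell into 2 stretches of the gene. Of the 24 joins between neighbouring exons, the join of exons 15 and 16 was the 1 that no circRNA enclosed, a feature picked out after its values were seen. Below it lay 13 circRNAs with 65 Young_D30 and 2 Adult_D210 reads, and above it 5 circRNAs with 30 and 6 reads. The intron between exons 15 and 16 is 10363 nt long, and 3 of the 19 introns of known length within the range are longer. PLD1 had 103 reads in all, and whether the lack of a ring across this join goes beyond so few reads was not tested.

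**Figure D2:**
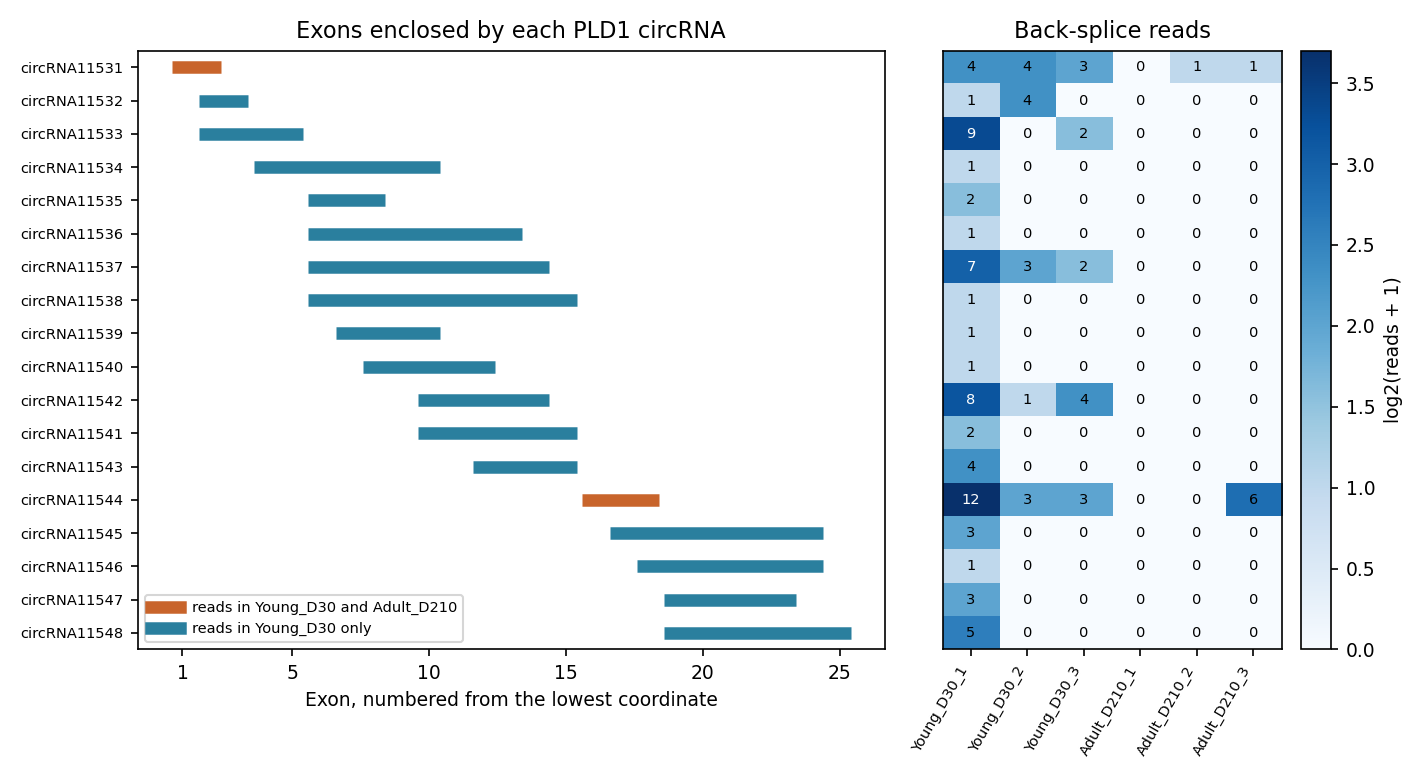
Left, the exons enclosed by each of the 18 PLD1 circRNAs, numbered from the lowest coordinate, in blue where reads were found in Young_D30 only and in orange where they were also found in Adult_D210. Right, the back-splice reads of each circRNA in each library, with colour giving log2(reads + 1). Orange marks 2 circRNAs, at exons 1 to 2 and 16 to 18, and 12 rows have reads in Young_D30_1 alone.

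Detection of single PLD1 rings rested largely on Young_D30_1. It held a read of all 18, as the make-up of the table requires, while Young_D30_2 and Young_D30_3 held reads of 5 each and the Adult_D210 libraries of 0, 1 and 2. In all, 12 of the 18 (66.7%) were seen in Young_D30_1 alone, with 25 reads between them, and 6 of these had a single read. Among the 64 host genes with at least 10 exonic circRNAs, the median share seen in 1 library was 20.4%, but their median number of reads was 419, and only 4 of them had fewer reads than PLD1. No test was made of whether PLD1 stood apart in this. The 4 rings with a read in every Young_D30 library, circRNA11531, circRNA11537, circRNA11542 and circRNA11544, held 62 of the 103 reads.

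Summed over the rings, the Young_D30 libraries held 66, 15 and 14 reads of PLD1, and the Adult_D210 libraries 0, 1 and 7. These were 11.8, 2.29 and 2.15 SRPBM in Young_D30 and 0, 0.165 and 0.956 SRPBM in Adult_D210, with means of 5.41 ± 5.52 and 0.374 ± 0.511 SRPBM (SD, n = 3 each). Young_D30_1 stood far above the other piglets, and Adult_D210_3 came closest to them. In CPM, the Young_D30 libraries had 1995, 813 and 752 and the Adult_D210 libraries 0, 69.9 and 551, so that Adult_D210_3 was nearer to Young_D30_3. A count of 0 in Adult_D210_1 allows up to 127 CPM. The PLD1 means in CPM were 1187 in Young_D30 and 207 in Adult_D210. Per mapped read, PLD1 back-splice reads were 13.2 times as frequent in Young_D30 (95% exact interval 6.44 to 31.5, over pooled reads).

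Reads were also summed by host gene and fitted over the 560 host genes with at least 10 reads. Both genes were called lower in Adult_D210, a call made for 11.1% of those tested, hosts of intronic circRNAs included. The log2 fold change of the summed reads was −2.84 (SE 0.81) for PLD1 and −3.78 (SE 0.84) for CDS1, where the median of all host genes tested was −0.31. With mapped reads as library sizes, that median moved to −1.05, PLD1 to −3.68 and CDS1 to −4.53, so that both changes relative to the median stayed much the same. The call of PLD1 was lost without Adult_D210_1 (−1.99), without Adult_D210_2 (−2.48), without Young_D30_1 (−2.09) and in DESeq2 (−2.64). That of CDS1 held in each of these. Without Adult_D210_3 the values were −5.20 for PLD1 and −5.18 for CDS1. When exonic circRNAs with reads in Young_D30_1 alone were left out of all host genes, an alternative chosen after seeing the data, PLD1 was at −2.48 and still called.

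Among single circRNAs, 6 of the 19 had at least 10 reads, and 1 of these 6, circRNA10493 of CDS1, was called lower in Adult_D210. Over all 1341 circRNAs tested, 4.85% were called lower and 3.43% higher, 8.28% in all. None of the 5 PLD1 circRNAs tested was called by edgeR, 2 of them with an unadjusted p under 0.05. DESeq2 called 0 as well and gave an adjusted p for 1 of the 5, circRNA11544. In simulated counts, the edgeR test called 29.0% of circRNAs changed by 2 on the log2 scale and 51.0% of those changed by 3. The changed ones were drawn from all 1341 circRNAs tested, so these rates are not those of rings with as few reads as PLD1's. A missing call thus does not show that a ring was unchanged. The other 13 PLD1 circRNAs were too rare to test: they had 26, 4 and 0 reads together in the Young_D30 libraries and 0 in each Adult_D210 library.

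The most abundant PLD1 ring, circRNA11544, was the smallest in span and the one with the most adult reads. It encloses exons 16 to 18 from 119253884 to 119258239, a spliced length of 387 nt. The Young_D30 libraries held 12, 3 and 3 reads of it and the Adult_D210 libraries 0, 0 and 6. In SRPBM these were 2.14, 0.458 and 0.461 in Young_D30 and 0, 0 and 0.820 in Adult_D210. The groups overlapped, since Adult_D210_3 lay above Young_D30_2 and Young_D30_3. Its ratio of Young_D30 to Adult_D210 per mapped read was 3.34 (95% exact interval 1.27 to 10.3, over pooled reads). That interval covers counting error only and not the spread between libraries. The log2 fold change of circRNA11544 was −1.13 (SE 1.26). That value rests on single libraries: it was −0.29 without Adult_D210_1, −0.58 without Adult_D210_2, −0.31 without Young_D30_1 and −5.50, with no adult read left, without Adult_D210_3.

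In the piglets circRNA11544 held 12 of 66, 3 of 15 and 3 of 14 reads of PLD1 (mean share 19.9% ± 1.63, SD, n = 3), where 3 reads leave the share of a library open to a wide counting error. Among the PLD1 circRNAs with at least 10 reads it held 12 of 40, 3 of 11 and 3 of 14 (mean share 26.2%). In Adult_D210_3 it held 6 of 7 reads. In Adult_D210_2 it held 0 of 1, and in Adult_D210_1 no PLD1 read was found. Over all libraries its share was 23.3%. Among the 64 host genes with at least 10 exonic circRNAs the median share of the leading circRNA was 38.8%, and 4 genes had a lower one than PLD1.

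The ring at the low end of the gene, circRNA11531, was the other one found in adults. It joins exons 1 and 2 (119145908 to 119154990), and its spliced length of 272 nt was the shortest measured. The Young_D30 libraries held 4, 4 and 3 reads, and the Adult_D210 libraries 0, 1 and 1. In SRPBM the levels were 0.714, 0.611 and 0.461 in Young_D30 and 0, 0.165 and 0.137 in Adult_D210. It was the most even of the rings among the piglets. Every Young_D30 library stood above every Adult_D210 library, as for 16.4% of the 1341 circRNAs tested by share of back-splice reads, and the ring was not called. Its log2 fold change was −1.96 (SE 1.31), and its ratio per mapped read was 6.12 (95% exact interval 1.34 to 56.8, over pooled reads, counting error only).

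The remaining 3 rings that could be tested had no adult read. circRNA11542, from exon 10 to exon 14 (119216629 to 119236371), had 8, 1 and 4 reads in the Young_D30 libraries. circRNA11537, from exon 6 to the same upper edge (119202413 to 119236371), had 7, 3 and 2. circRNA11533, from exon 2 to exon 5 (119154837 to 119186715), had 9, 0 and 2, so that it was absent from the reads of 1 piglet as well. Against a floor of 3 reads in each Adult_D210 library, their Young_D30 mean SRPBM was 1.67, 1.54 and 1.46 times that floor. The Young_D30 mean is taken as counted, so these are not lower bounds on a fall. None of the 3 rings was called. These values are small because so few reads were counted. The widest ring of the gene, circRNA11538, encloses exons 6 to 15 over 41108 nt (119202413 to 119243520) and had 1 read, in Young_D30_1.

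Seen along the gene, the adult reads lay at exons 1 to 2 and 16 to 18. The 12 circRNAs that enclose any of exons 3 to 15 had 54 Young_D30 reads and 0 Adult_D210 reads. Exon 12 was enclosed by the most reads, 34, of which 24 came from Young_D30_1, 4 from Young_D30_2 and 6 from Young_D30_3. At the high end, exons 19 to 25 were enclosed by reads of Young_D30_1 alone, 12 or fewer at each exon. The stretch was chosen after its values were seen, and with 8 adult reads in all, its lack of adult reads was not tested against the rest of the gene.

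**Figure D3:**
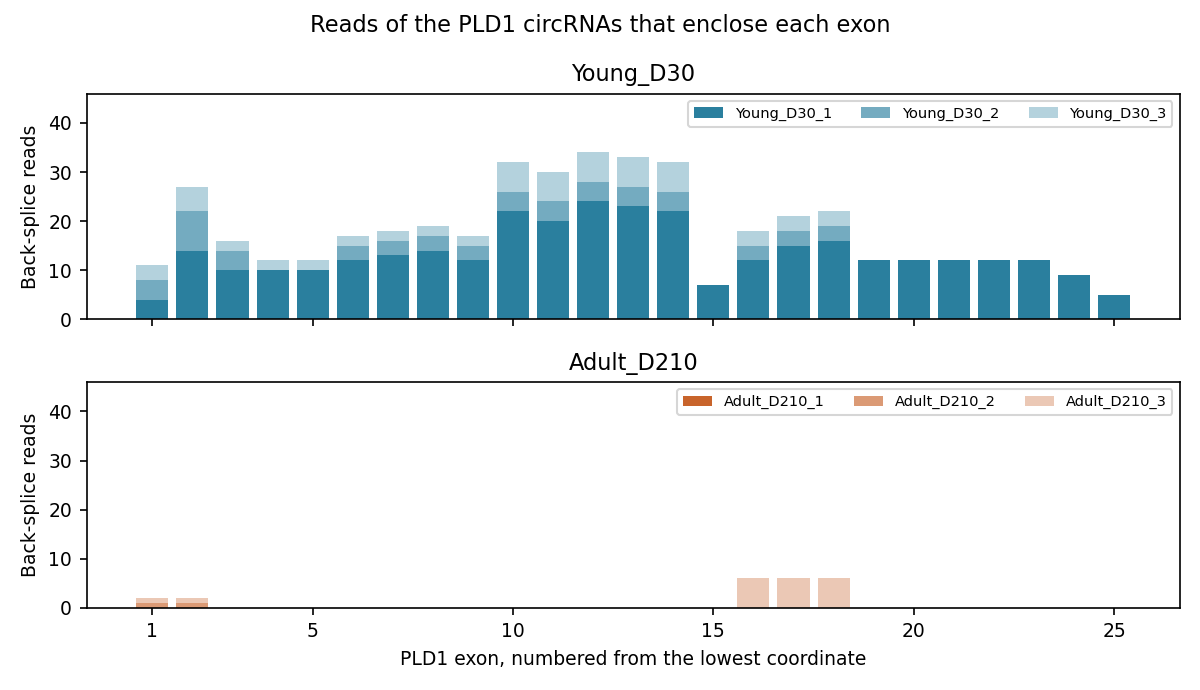
Back-splice reads of the PLD1 circRNAs that enclose each exon (y axis, reads) along the 25 exons numbered from the lowest coordinate (x axis), stacked by library, for Young_D30 above and Adult_D210 below on the same scale. A circRNA counts at each exon it encloses, so exons share reads. The piglet reads peak at 34 at exon 12, and adult reads stand only at exons 1 to 2 and 16 to 18.

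The other genes of the pathway were looked up in lists made by role, which hold 142 genes besides PLD1 and CDS1. Of these, 21 were host genes in the table and 12 had enough reads to test. In the same host gene fit 3 of the 12 fell in Adult_D210, 2 rose and 7 did not pass, where 11.1% of all host genes tested were called lower and 6.43% higher. The median log2 fold change of the 12 was −0.14, against −0.31 for all host genes. The lists as a whole thus held changes in both directions.

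The enzymes closest to PLD1 and CDS1 were few in the table, which says nothing of their circRNAs outside it. None of the 5 other phospholipase D genes was a host gene there, nor any of the 15 phosphatidic acid phosphatase genes, which remove the phosphate to give diacylglycerol. Of the 11 diacylglycerol kinases, which make phosphatidic acid by adding a phosphate, DGKA and DGKZ had 1 read each. TAMM41, the mitochondrial enzyme that makes CDP-diacylglycerol as CDS1 does in the endoplasmic reticulum, had 41, 26 and 21 reads in Young_D30 and 9, 1 and 0 in Adult_D210. Every piglet library stood above every adult one, as for 22.5% of the 560 host genes tested. The summed reads fell (log2 fold change −2.53, SE 0.71, edgeR adjusted p = 0.0102). That call was lost without Adult_D210_2 (−2.16), and without Adult_D210_1 the value was −4.78.

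GPAT3, which adds the first fatty acid to glycerol 3-phosphate on the synthetic route to phosphatidic acid, went the opposite way. Its 6 circRNAs had 52, 12 and 35 reads in Young_D30 and 140, 66 and 50 in Adult_D210. Every adult library was above every piglet library in CPM, an order whose share over all host genes was not counted. In SRPBM the groups overlapped, with Adult_D210_3 at 6.83 and Young_D30_1 at 9.28. In the fit the summed reads rose (log2 fold change 1.93, SE 0.38, edgeR adjusted p = 0.000281). With mapped reads as library sizes the rise was smaller and not called (1.195, edgeR adjusted p = 0.154), and it was called in each fit with 1 library left out.

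Of the genes that handle phosphoinositides, the lipids made downstream of CDS1, 3 of 9 tested were called, where 17.5% of the 560 host genes were called in either direction. PIK3CB, a catalytic subunit of phosphoinositide 3-kinase, had 26, 13 and 26 reads in Young_D30 and 0, 4 and 0 in Adult_D210. Its summed reads fell (log2 fold change −3.35, SE 0.97, edgeR adjusted p = 0.0125). PLCH1, a phospholipase C that cleaves phosphatidylinositol bisphosphate, had 51, 8 and 19 reads in Young_D30 and 7, 2 and 0 in Adult_D210, and also fell (log2 fold change −2.45, SE 0.77, edgeR adjusted p = 0.0218). SYNJ1, a phosphoinositide phosphatase of endocytosis, had 19, 1 and 8 reads in Young_D30 and 36, 27 and 11 in Adult_D210, and rose (log2 fold change 1.99, SE 0.57, edgeR adjusted p = 0.0112).

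Each of these 3 calls depended on single libraries. PIK3CB was not called without Adult_D210_1 (−2.52) or without Young_D30_3 (−3.01), and stood at −7.28, a fitted value with no adult read left, without Adult_D210_2. PLCH1 was not called without Adult_D210_2 (−2.27), Adult_D210_3 (−2.01) or Young_D30_1 (−1.87), and stood at −3.65 without Adult_D210_1. SYNJ1 was not called without Adult_D210_1 (1.92) or Adult_D210_2 (1.87), nor with mapped reads as library sizes (1.23), and stood at 2.68 without Young_D30_1. In DESeq2 neither PLCH1 nor SYNJ1 passed.

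The listed genes with the most reads among phosphoinositide phosphatases and among the activators of PLD1 were not called. INPP5K, a phosphoinositide phosphatase with 4 intronic circRNAs and 809 reads, had 119 to 174 reads per Young_D30 library and 98 to 176 per Adult_D210 library, and a log2 fold change of 0.28 (SE 0.30). ARF4, of the GTPase family that activates PLD1, had 18, 0 and 2 reads in Young_D30 and 8, 9 and 6 in Adult_D210, and a log2 fold change of 0.83 that did not pass the test. Without Young_D30_1, which held 18 of its piglet reads, that value was 3.06 and did not pass either, and with mapped reads as library sizes it was 0.04. PITPNM3, a phosphatidylinositol transfer protein, had 3 reads in all.

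**Figure D4:**
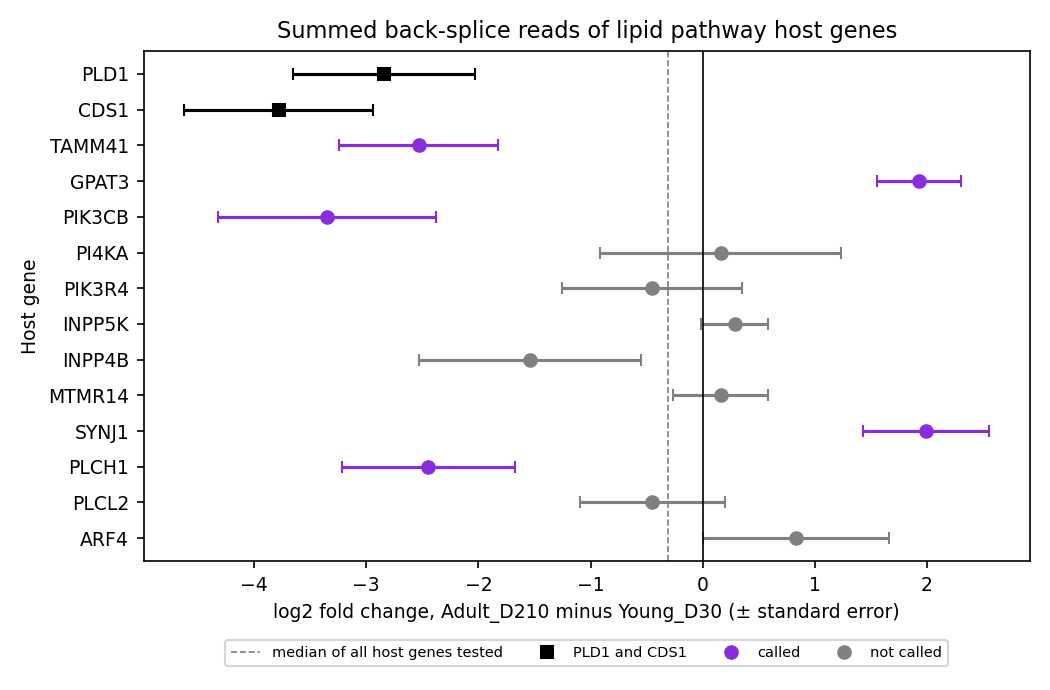
Log2 fold change of summed back-splice reads, Adult_D210 minus Young_D30 (x axis, whiskers ± standard error), for PLD1, CDS1 and the 12 other pathway host genes with at least 10 reads. Purple marks the genes called at an adjusted p under 0.05, grey the others, and the dashed line the median of all 560 host genes tested, −0.31. TAMM41, PIK3CB and PLCH1 lie on the side of PLD1 and CDS1, and GPAT3 and SYNJ1 on the other side.

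Host genes with a profile like that of PLD1 and of CDS1 were sought among the 311 with at least 50 reads, by Pearson r of log2 CPM over the 6 libraries. These are descriptions over 6 points that share their libraries, depth and stages. PLD1 was most like APP, the amyloid precursor protein (r = 0.99), ANTXR2, an anthrax toxin receptor (r = 0.96), and MBNL1, a splicing factor (r = 0.94), and 12 genes had an r of at least 0.9 with it. APP had 152, 50 and 59 reads in Young_D30 and 16, 13 and 26 in Adult_D210, and shared with PLD1 the high Young_D30_1 and, of the adults, the high Adult_D210_3. CDS1 was most like EPHA5, an ephrin receptor (r = 0.98), NEK10, a kinase (r = 0.97), and STT3B, a subunit of oligosaccharyltransferase (r = 0.97), and 26 genes had an r of at least 0.9 with it. EPHA5 had 39, 29 and 30 reads in Young_D30 and 0, 0 and 2 in Adult_D210. PLD1 and CDS1 had an r of 0.90 with each other, the rank 11 among the genes like PLD1 and 25 among those like CDS1.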

How the data were processed

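RNA of whole testis from 3 Young_D30 and 3 Adult_D210 Landrace boars was cleared of ribosomal and linear RNA and sequenced as read pairs of 150 nt. The authors trimmed with Cutadapt, aligned with TopHat2 (build Sscrofa10.2 in the submitters' processing notes) and found back-splice junctions with TopHat-Fusion and CIRCExplorer2. For each circRNA and library they deposited a raw count of junction reads and beside it SRPBM, a normalized signal in which the authors scaled that count by mapped reads and read length. Mapped reads were recovered from the ratio of the 2 columns. The table had from 12701 to 33091 junction reads per library, so that most circRNAs rest on few reads.

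Groups were taken from the sample titles. Counts per circRNA, and counts summed by host gene, were fitted with edgeR 4.0.16 in R 4.3.3 (TMM, robust quasi-likelihood test, Benjamini-Hochberg adjustment) where they reached 10 reads over the 6 libraries. Features changed by at least 1 on the log2 scale with an adjusted p under 0.05 were called. The code was tested on simulated data. P-values measure the spread between these 6 libraries. No pair within a stage was as alike as counting noise alone would give (chi-square over degrees of freedom 3.87 to 4.97). Ratios carry 95% exact binomial intervals over pooled reads (SciPy 1.17.1, Python 3.11.15), which leave out the spread between libraries.

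The genes, pathway lists and marker lists were chosen with earlier results of these data known. Named singly were circRNAs with at least 10 reads, the most abundant and the widest of each gene, any of a single exon, the pathway genes called and the most abundant of each list, and the 3 host genes most alike in profile to each gene. Other names were picked out with their values in view. Of 482 host genes given by Ensembl identifier, 284 were matched to a symbol. DESeq2 1.42.0, mapped reads as library sizes, no TMM, the older quasi-likelihood fit, minimums of 1 and 20 reads, no fold change limit, a replicate block and each library left out were alternatives. Sequences of the circRNAs were not used here.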

Additional observations from a re-analysis of the deposited data

How the results depend on the processing

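CDS1 summed over its reads stayed called in every alternative run, between −5.18 and −3.27, and its circRNA in all but the fit without Adult_D210_1. PLD1 stayed below 0 in every alternative, and its call was lost in DESeq2 (−2.64) and in 3 of the fits with 1 library left out, whose values ran from −5.20 to −1.99. Of the 68 values of single PLD1 and CDS1 circRNAs under alternatives, 67 kept their side of the threshold, and 4 more from DESeq2 had no adjusted p and are not counted. For the PLD1 circRNAs the side kept was that of no call, in a test on few reads. The number of PLD1 and CDS1 circRNAs called lower was 0 to 1 with 1 library left out. A minimum of 20 reads leaves circRNA11531, circRNA11533, circRNA11537 and circRNA11542 untested, as does the fit without Young_D30_1. Counting only PLD1 circRNAs with at least 10 reads, the Young_D30 share of circRNA11544 was 26.2% in place of 19.9%. In the pathway lists, 1 gene was called higher in DESeq2 and 0 with mapped reads as library sizes, and with 1 library left out 1 to 2 were higher and 1 to 3 lower. Over all circRNAs tested, mapped reads as library sizes gave 9 higher and 68 lower calls in place of 46 and 65. With 1 library left out there were 15 to 38 higher and 22 to 49 lower calls. The cause was not tested.

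The same replicate numbers appear at both stages, and the labels do not say whether such boars share more than the number. The correlation of deviations between same-numbered libraries was 0.05, −0.01 and −0.03 over circRNAs, where Young_D30_2 went best with Adult_D210_3 (0.06). Over host genes it was 0.09, 0.0008 and 0.04, where Young_D30_1 went best with Adult_D210_1. These values cannot tell whether anything else was shared. A replicate block left 14 higher and 19 lower calls over all circRNAs, and PLD1 (−2.82) and CDS1 (−3.79) stayed called. Depth is a limit: 6 of the 18 PLD1 circRNAs had 1 read, and no adult library had more than 7 PLD1 reads. By Spearman's rank correlation the genes most like PLD1 and CDS1 were others, except STT3B, and with mapped reads as library sizes the 3 named for PLD1 remained and those for CDS1 did not.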

Other observations

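The pathway annotation that came with the table, a grouping taken up after its contents were seen, places PLD1 and CDS1 together in KEGG glycerophospholipid metabolism. Of the 9 other host genes it puts there, 2 had enough reads to test: GPAT3, described above, and PCYT1A, the regulated step of phosphatidylcholine synthesis. PCYT1A had 7, 6 and 2 reads in Young_D30 and 3, 3 and 4 in Adult_D210. Its log2 fold change was 0.01 with an SE of 0.97, too wide to show that it was unchanged. PCYT1A did not pass the test. In the KEGG phosphatidylinositol signaling system, which holds CDS1, 6 of 10 other host genes were tested, with PIK3CB lower, SYNJ1 higher and INPP5K, INPP4B, ITPR3 and PI4KA not called.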
